A study of Mus musculus with 6 samples.

Results

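The complement genes examined were C1qa, C1qb, C1qc, C1ra, C2, C3, C4b, Cfb and Serping1, 9 genes chosen by symbol among the 46603 gene identifiers that were counted. All 9 were found, and all 9 passed the filter that left 15226 genes for testing. Cfb passed on its counts in the lipopolysaccharide (LPS) group alone. Complement is a cascade of secreted proteins that marks microbes and cell debris for uptake. In the classical pathway C1q, built from A, B and C chains, binds a target and activates the proteases C1r and C1s, which cleave C4 and C2 to form an enzyme that splits C3. The alternative pathway uses factor B to split more C3, and inhibitors such as the C1 inhibitor (Serping1) keep the cascade in check. In the gut and the brain, macrophages are the best known source of C1q, whereas C3, C4 and factor B can be made by many cell types during inflammation.

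The libraries came from cultures of enteric glial cells (EGCs), which support the neurons of the intestinal wall. They had been grown from neurospheres, floating clusters of neural progenitors, started from total intestine of C57BL/6J embryos (mouse, embryonic day 14.5). The labels name no genetic change in either group. Both groups were grown as adherent cells in medium with 10% serum, and they differed in exposure to LPS, a bacterial cell wall component. The control group (n = 3) was untreated, and the LPS group (n = 3) received 100 ng/ml for 12 h. The labels numbered the libraries 1 to 3 in each group and did not say whether these were separate cultures or animals, so p-values measure the spread between these samples, which may be technical. No sorting step is described for these cultures of whole intestine.

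Poly(A) RNA had been sequenced, and total counts ranged from 18775316 to 23664312 per library. Levels are given in CPM, the usual unit of counts scaled to the size of each library, and a gene with 3 counts stood at 0.124 to 0.167 CPM, depending on the library. Markers of glia were present, with 10 of 10 above 3 counts in every library and a summed level of 492.6 to 693.5 CPM in control and 533.0 to 549.9 CPM in LPS. Of these, Fabp7 was called higher in LPS, and Cdh19 and S100b lower, in a test that called 9.09% of all genes higher and 6.71% lower. Mesenchymal markers (7 of 7 above 3 counts, sums of 15254 to 15889 CPM in control and 14819 to 15453 CPM in LPS, with Dcn and Pdgfra called higher) and smooth muscle markers (5 of 5, 2119 to 2369 CPM in control and 592.1 to 848.6 CPM in LPS, all 5 called lower, 4 of them by limma-voom) were present as well, and all 5 T and B cell markers were at or under 3 counts in every library. Of 12 macrophage markers, 11 were above 3 counts in every library, and all 12 were highest in replicate 3 of both groups. Their summed level was 4076, 5250 and 11983 CPM in control replicates 1, 2 and 3, and 4117, 5354 and 19083 CPM in LPS replicates 1, 2 and 3. Each of the called glial and mesenchymal markers, and Acta2 and Myh11 of smooth muscle, lost its call when some single libraries were left out. The part of glial, mesenchymal or smooth muscle cells in the levels of the complement genes was not tested. Replicate 3 stood apart in both groups, and results without it are given for the C1q chains, C1ra, Cfp, Clu, Csmd1, C6, C7 and the receptors.

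Across the 9 genes, 6 rose with LPS (C1ra, C2, C3, C4b, Cfb and Serping1), and the 3 C1q chains were not called in either direction. Calls were made with the edgeR quasi-likelihood test at an adjusted p under 0.05. Of all genes tested, 9.09% were called higher and 6.71% lower. The number of the 9 called lower was 0, also at an unadjusted p under 0.05 and with DESeq2, the edgeR exact test and limma-voom. The median log2 fold change was 1.96 over the 9 genes and -0.02 over all genes tested. All 3 LPS libraries lay above all 3 control libraries for the same 6 genes, a separation found for 19.3% of all genes tested. With the replicate number as a block, which called 15.4% of genes higher and 14.9% lower, the same 6 were called higher.

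**Figure D1:**
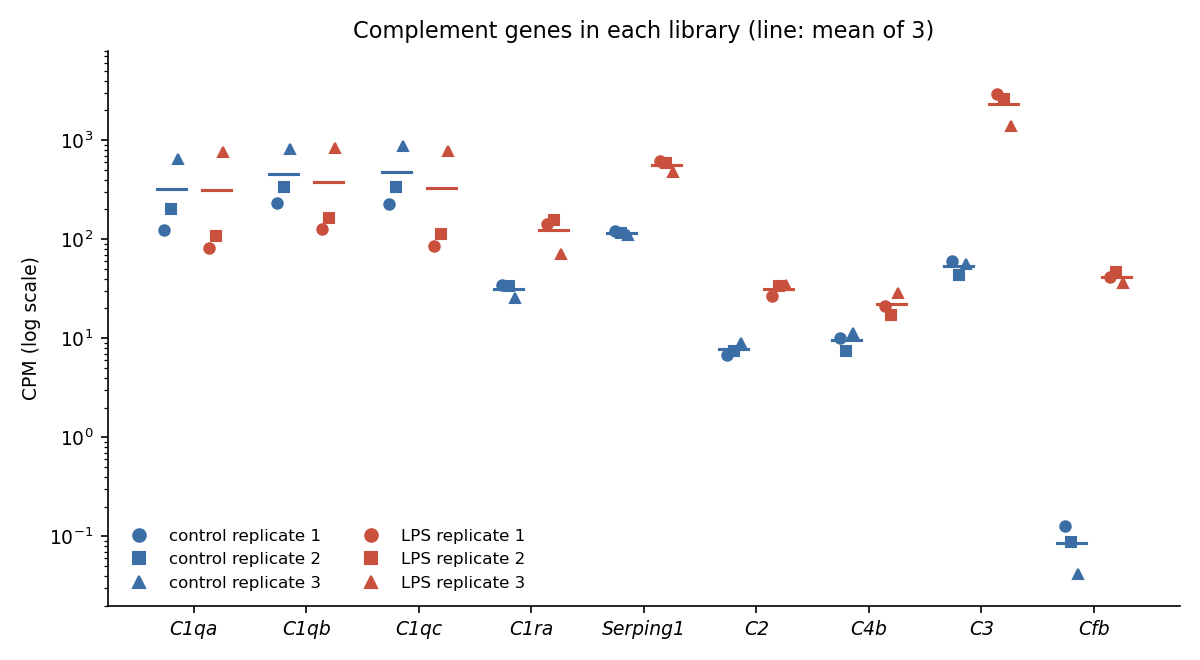
Level of each of the 9 complement genes in each library, in CPM on a log axis, with 3 control and 3 LPS libraries per gene and a symbol shape for each replicate number. LPS libraries lie above control libraries for C1ra, C2, C3, C4b, Cfb and Serping1, and the groups overlap for C1qa, C1qb and C1qc, for which replicate 3 of both groups is highest.

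The regions upstream of C3 and C1qb are shown first, because C3 rose with LPS and C1qb was not called. RefSeq sequences of GRCm38.p6 were matched for 4 of the 9 genes (C1qb, C1qc, C1ra and C3). Those of C1ra and C1qc lie mostly inside the gene as GENCODE M21 annotates it, since the starts differ between the annotations, and are not shown. Each of the others is printed 5′ to 3′ on the strand of the gene and covers the 250 bases before the RefSeq start. Capitals mark matches, on either strand, to 6 motifs: the NF-κB site, the interferon-stimulated response element core GAAANNGAA, the gamma-activated site TTCNNNGAA, the C/EBP site TTGCNNAA, the PU.1 core GAGGAA and the AP-1 site TGANTCA. The C3 region lies at chr17:57228137-57228386 and the C1qb region at chr4:136886201-136886450, both on the minus strand.
C3: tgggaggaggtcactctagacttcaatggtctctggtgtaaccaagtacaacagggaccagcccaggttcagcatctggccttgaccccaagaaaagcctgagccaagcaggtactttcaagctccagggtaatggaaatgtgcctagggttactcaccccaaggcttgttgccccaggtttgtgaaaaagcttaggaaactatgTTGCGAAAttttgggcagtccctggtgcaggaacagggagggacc
C1qb: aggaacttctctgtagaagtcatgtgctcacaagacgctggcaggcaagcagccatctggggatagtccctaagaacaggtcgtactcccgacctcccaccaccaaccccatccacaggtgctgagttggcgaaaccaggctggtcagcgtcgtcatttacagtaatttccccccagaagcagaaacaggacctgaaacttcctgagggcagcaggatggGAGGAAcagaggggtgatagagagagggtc
The C3 region held a C/EBP match 45 to 38 bases before the start. Of 32851 RefSeq promoter windows of the same length, 9.56% held this motif. The C1qb region held a PU.1 core 30 to 25 bases before the start. The PU.1 core, the letters bound by a factor of myeloid cells, was found in 23.3% of windows. The other motifs had no match in either region and were present in 7.25% (NF-κB), 7.13% (interferon-stimulated response element core), 7.02% (gamma-activated site) and 6.75% (AP-1) of windows. These matches are a description of letters. Binding was not measured.

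C3, on which all pathways converge, showed the highest mean level of the 9 genes in LPS per kilobase of exon. The gene lies on chromosome 17 from 57203970 to 57228136 on the minus strand (GRCm38, as all coordinates here). Its level was 60.8, 43.6 and 56.2 CPM in control replicates 1, 2 and 3, and 2921, 2602 and 1381 CPM in LPS replicates 1, 2 and 3. The lowest LPS library, replicate 3, was still far above the highest control library. The means were 53.5 ± 8.94 CPM (SD, n = 3) in control and 2302 ± 812.9 CPM (SD, n = 3) in LPS. C3 rose 43.0-fold, a log2 fold change of 5.43 (SE 0.36, edgeR adjusted p = 0.000878). Within replicate numbers 1, 2 and 3 the ratio of LPS to control was 48.0, 59.7 and 24.6. C3 remained called in each of 16 alternative analyses, with an edgeR adjusted p of at most 0.0114 when 1 library was left out.

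Cfb, which encodes factor B, the protease precursor of the alternative pathway, was barely detected in control. The gene spans 34856374 to 34862518 of chromosome 17 (minus strand), and its counts were 3, 2 and 1 in control replicates 1, 2 and 3 against 843, 845 and 693 in LPS replicates 1, 2 and 3. These correspond to 0.127, 0.0885 and 0.0413 CPM in control and 41.7, 47.1 and 36.3 CPM in LPS. Every control library was at or under the level of 3 counts, and the LPS libraries were within a narrow range. The ratio of LPS to control was 487.6, with an exact 95% interval of 223.7 to 1330 that covers counting error only. Cfb rose in the edgeR test (adjusted p = 0.000108), and it remained called in each of 15 alternative analyses in which it could be tested. The annotation holds a read-through gene, Gm20547, that covers 79.5% of the exon bases of Cfb and 42.8% of those of C2 on the same strand. Gm20547 itself had at most 1 count in a library, and how the counting assigned reads shared between these genes was not stated.

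Other genes of the alternative pathway moved less clearly. Cfp, which encodes properdin, the protein that stabilises the C3-splitting enzyme, was at 35.2, 52.6 and 108.4 CPM in control replicates 1, 2 and 3 and at 70.8, 97.1 and 414.7 CPM in LPS replicates 1, 2 and 3. Each LPS library was above the control library of its number, but the groups overlapped. The log2 fold change was 1.57 (SE 0.79, edgeR adjusted p = 0.234), and 1.28 with the replicate block (edgeR adjusted p = 0.0211). Without replicate 3 of both groups it was 0.96 (edgeR adjusted p = 0.0123, with a highest value of 0.640 over all alternatives). Cfp was highest in replicate 3 of both groups, like the macrophage markers, and their part in the result was not tested. Cfd, encoding the protease factor D, had 1, 2 and 1 counts in control and 4, 1 and 2 counts in LPS and was not tested.

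Of 11 genes of the classical pathway listed, 9 were tested and 5 rose (C1ra, C1s1, C1rl, C2 and C4b), against 9.09% of all genes tested. C1ra encodes C1r, the first protease of the pathway, and lies on chromosome 6 from 124512405 to 124523443 (plus strand). It was at 34.8, 34.0 and 25.8 CPM in control replicates 1, 2 and 3 and at 143.1, 155.1 and 70.7 CPM in LPS replicates 1, 2 and 3. LPS replicate 3 was the lowest of its group and still above all control libraries. C1ra rose 3.90-fold (31.6 ± 4.97 CPM against 123.0 ± 45.7 CPM, SD, n = 3), with a log2 fold change of 1.96 (SE 0.32, edgeR adjusted p = 0.0150). The call was lost when replicate 1 or 2 of either group was left out, with log2 fold changes of 1.76 to 2.05 and adjusted p up to 0.0779 (edgeR). Without replicate 3 of both groups the log2 fold change was 2.14 (edgeR adjusted p = 3.04e-06, against 1.34e-07 to 0.0779 over all alternatives).

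C1s1, the neighbouring gene on the opposite strand, encodes C1s, the protease that C1r activates. It was at 113.8, 102.2 and 96.5 CPM in control replicates 1, 2 and 3 and at 437.5, 456.1 and 207.1 CPM in LPS replicates 1, 2 and 3, so that LPS replicate 3 was again the lowest of its group. Its log2 fold change was 1.82 (SE 0.31, edgeR adjusted p = 0.0173), and the call was lost without control replicate 1 or 2 or LPS replicate 1 or 2 (adjusted p up to 0.0904), while the log2 fold change stayed between 1.63 and 2.10. Per kilobase of exon, the level of C1ra relative to C1s1 was 0.321, 0.349 and 0.281 in control and 0.343, 0.357 and 0.358 in LPS, and these ranges overlap. C1rl, a C1r-like protease gene beside C1ra, rose as well, from 5.74 ± 0.740 CPM to 9.40 ± 0.791 CPM (SD, n = 3), with a log2 fold change of 0.71 (SE 0.15, edgeR adjusted p = 0.0326). It lost its call without any single one of the libraries except LPS replicate 3 (adjusted p up to 0.117), with log2 fold changes of 0.66 to 0.83. The copies C1rb (1, 1 and 0 counts in control, 8, 5 and 0 in LPS) and C1s2 (0, 2 and 1 counts in control, 5, 9 and 1 in LPS) were not tested. Of the 50-base words in C1ra exons, 48.0% also occur in C1rb, and of those in C1s1, 21.8% occur in C1s2, so reads could be shared between copies.

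C2 encodes the protease that pairs with C4 in the classical pathway, and ends 85 bases from Cfb (chromosome 17, 34862604 to 34898265, minus strand). Control replicates 1, 2 and 3 were at 6.74, 7.53 and 9.01 CPM, and LPS replicates 1, 2 and 3 at 26.9, 34.1 and 34.4 CPM. The spread within each group was small beside the gap between them. C2 rose 4.10-fold (7.76 ± 1.15 CPM against 31.8 ± 4.23 CPM, SD, n = 3), with a log2 fold change of 2.03 (SE 0.16, edgeR adjusted p = 0.00169). It remained called whichever library was left out (adjusted p up to 0.0194).

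C4b encodes C4, the other substrate of C1s, at 34728380 to 34743882 of chromosome 17 (minus strand). It was at 10.1, 7.48 and 11.2 CPM in control replicates 1, 2 and 3 and at 21.4, 17.2 and 28.5 CPM in LPS replicates 1, 2 and 3. The groups did not overlap, and the highest library of each was replicate 3. C4b rose 2.33-fold (9.59 ± 1.90 CPM against 22.4 ± 5.69 CPM, SD, n = 3), with a log2 fold change of 1.22 (SE 0.24, edgeR adjusted p = 0.0252), the smallest rise among the 6. The call was lost without LPS replicate 1 or without replicate 1 or 2 of control (log2 fold change 1.08 to 1.27, adjusted p up to 0.0965). Its paralog C4a stood at 1.06, 0.575 and 0.661 CPM in control against 1.04, 1.34 and 1.15 CPM in LPS and was not called (log2 fold change 0.61, SE 0.31, edgeR adjusted p = 0.237). C4b shares 34.6% of its 50-base exon words with C4a, which makes the split of reads between both genes uncertain.

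Serping1 encodes the C1 inhibitor, which blocks C1r and C1s, and it lies on chromosome 2 from 84765387 to 84775444 (minus strand). It was at 122.4, 115.8 and 111.3 CPM in control replicates 1, 2 and 3 and at 610.7, 592.7 and 478.2 CPM in LPS replicates 1, 2 and 3. The control libraries were nearly level, and all LPS libraries were well above them. Serping1 rose 4.81-fold (116.5 ± 5.55 CPM against 560.5 ± 71.9 CPM, SD, n = 3), with a log2 fold change of 2.27 (SE 0.12, edgeR adjusted p = 0.000383). Leaving out single libraries kept the log2 fold change between 2.20 and 2.37 and the adjusted p at most 0.00832. Per kilobase of exon, the level of C3 relative to Serping1 was 0.225, 0.170 and 0.228 in control and 2.16, 1.98 and 1.31 in LPS. With the length of the union of exons, C3 was below the inhibitor in every control library and above it in every LPS library, and with the longest transcript both were nearly level in LPS replicate 3.

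**Figure D2:**
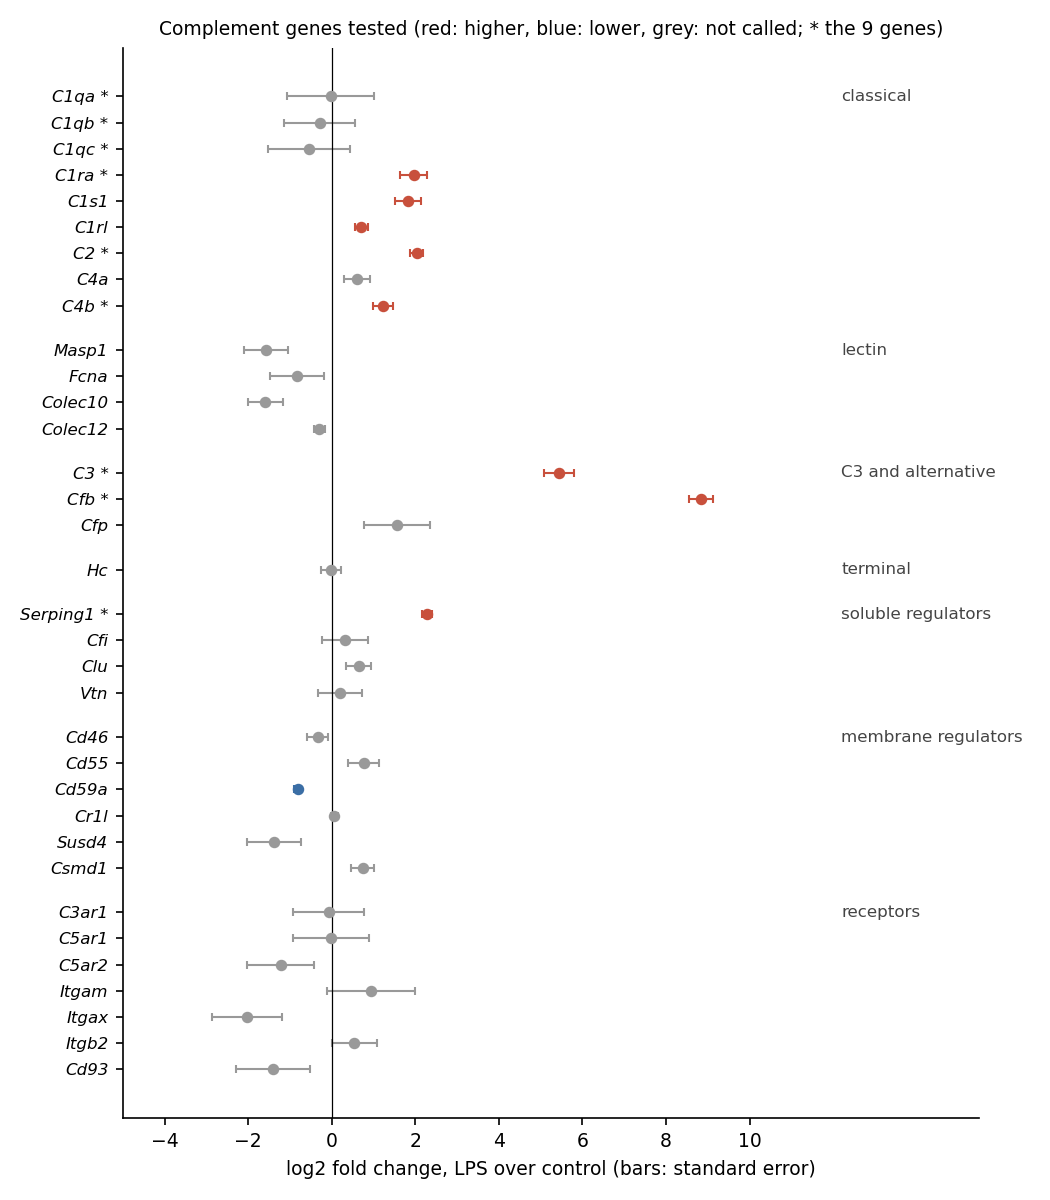
Log2 fold change of LPS against control (x axis) for the 9 complement genes and for the other genes of the list that were tested, grouped by role, with error bars of 1 SE from the edgeR quasi-likelihood fit. C3 and Cfb lie far to the right of C1ra, C2, C4b and Serping1, and the C1q chains lie near 0 with SE of 0.85 to 1.04.

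The 3 C1q genes lie side by side on chromosome 4 in the order C1qb (136880129 to 136886187), C1qc (136889804 to 136893065) and C1qa (136895917 to 136898803), all on the minus strand. C1qa was at 125.0, 200.5 and 645.0 CPM in control replicates 1, 2 and 3 and at 80.9, 107.6 and 761.8 CPM in LPS replicates 1, 2 and 3. C1qb was at 234.3, 336.3 and 806.1 CPM in control and at 127.8, 163.9 and 838.2 CPM in LPS, in the same order. C1qc was at 226.3, 337.9 and 877.8 CPM in control and at 84.8, 113.2 and 784.3 CPM in LPS. All chains had the same pattern, with replicate 3 of both groups far above the rest, replicates 1 and 2 of LPS below those of control, and groups that overlapped.

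Over all 6 libraries the log2 fold change was -0.03 for C1qa (SE 1.04, edgeR adjusted p = 0.988), -0.29 for C1qb (SE 0.85, adjusted p = 0.854) and -0.55 for C1qc (SE 0.98, adjusted p = 0.744). The ratio of LPS to control within numbers 1, 2 and 3 was 0.647, 0.536 and 1.18 for C1qa, 0.545, 0.487 and 1.04 for C1qb and 0.374, 0.335 and 0.893 for C1qc. Only C1qc was thus lower in LPS at every number. With the replicate block the log2 fold changes were -0.43, -0.62 and -1.05 for C1qa, C1qb and C1qc (edgeR adjusted p = 0.234, 0.114 and 0.0650), and none was called.

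Leaving out replicate 3 of both groups, an analysis chosen after seeing the data, gave 2 against 2 libraries and lower calls for all 3 chains. The log2 fold change was then -0.77 for C1qa, -0.94 for C1qb and -1.49 for C1qc (edgeR adjusted p = 0.0369, 0.00741 and 0.00188). In that analysis 20.4% of all genes were called lower and 22.6% higher. Leaving out single libraries moved the log2 fold change between -1.78 and 0.97 for C1qa, -1.66 and 0.41 for C1qb and -2.28 and 0.23 for C1qc, without a call. All chains were positive without control replicate 3, and C1qa and C1qb also without LPS replicate 1 or LPS replicate 2, so their direction depended on the libraries included. In RNA from a whole culture, fewer cells of a type and less RNA per cell cannot be told apart.

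C1q was set beside the 12 macrophage markers, since the markers and the chains were highest in the same libraries. The markers with the highest mean over all 6 libraries, an order that differs within each group, were Lyz2 (lysozyme, mean of 4785 CPM in control against 5645 CPM in LPS), Adgre1 (the macrophage antigen F4/80, 286.8 against 1971 CPM) and Laptm5 (a lysosomal protein of blood cells, 395.7 against 282.9 CPM). The sum of the C1q chains was 585.6, 874.7 and 2329 CPM in control replicates 1, 2 and 3 and 293.4, 384.7 and 2384 CPM in LPS replicates 1, 2 and 3. As a percentage of the marker sum this was 14.4%, 16.7% and 19.4% in control (16.8% ± 2.50, SD, n = 3) and 7.13%, 7.19% and 12.5% in LPS (8.94% ± 3.08, SD, n = 3). With all 12 markers in the sum the groups did not overlap on this scale, replicate 3 included. Adgre1 contributed 159.0, 229.3 and 472.1 CPM to the sum in control replicates 1, 2 and 3. In LPS replicates 1, 2 and 3 it contributed 952.4, 1261 and 3700 CPM, and the percentages without Adgre1 were not examined. With Lyz2 left out of the sum the percentages were 49.3%, 49.7% and 58.2% in control and 16.9%, 16.8% and 31.4% in LPS.

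The markers themselves did not move together, so this comparison depended on the marker. Adgre1 rose (log2 fold change 2.78, edgeR adjusted p = 0.0452). Leaving out replicate 1 or 2 of either group ended the call (adjusted p up to 0.169), while the log2 fold change stayed between 1.95 and 3.36 with single libraries left out. Mrc1, the mannose receptor CD206, was lower in all 3 LPS libraries, a separation seen for 19.4% of all genes. Its log2 fold change was -3.08 (edgeR adjusted p = 0.145) and, with the replicate block, -3.92 (edgeR adjusted p = 0.0124, with a range of 4.49e-05 to 0.294 over all alternatives). The block moved the calls among the 12 markers from 1 higher and 0 lower (1 lower at an unadjusted p under 0.05, and 0 with DESeq2, the edgeR exact test or limma-voom) to 5 higher and 5 lower, against 15.4% and 14.9% of all genes. Relative to single markers, taken one at a time after the data were seen, C1q was lower in every LPS library than in every control library for 6 of the 12 (Adgre1, Aif1, Csf1r, Fcer1g, Fcgr1 and Ptprc). It was higher for 2 (Cx3cr1 and Mrc1), and the groups overlapped for 4 (Cd68, Laptm5, Lyz2 and Tyrobp). The part of macrophage number in the level of C1q was not tested.

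**Figure D3:**
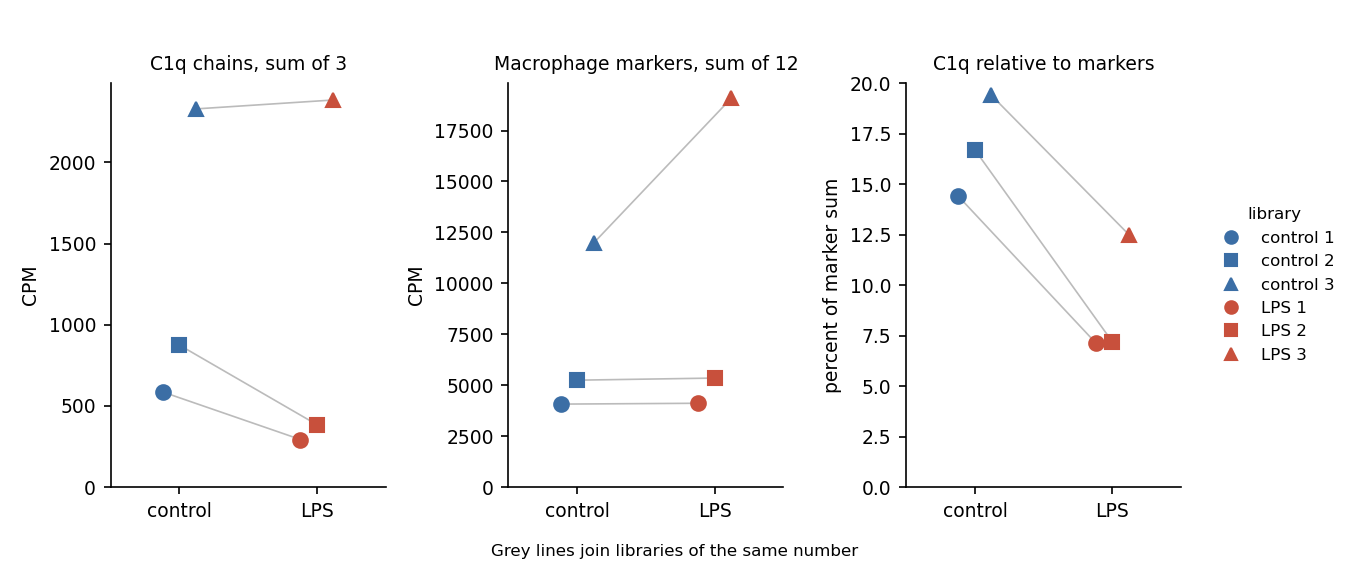
Summed CPM of the 3 C1q chains (left), summed CPM of 12 macrophage markers (middle) and the C1q sum as a percentage of the marker sum (right) in each library, with grey lines joining libraries of the same number. Replicate 3 is highest in both sums, and the percentage is 14.4 to 19.4 in control and 7.13 to 12.5 in LPS.

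The chains also differed among themselves. Per kilobase of exon, C1qc relative to C1qb was 0.544, 0.566 and 0.614 in control against 0.374, 0.389 and 0.527 in LPS, in the order of the replicate numbers. The lowest control value was just above the highest LPS value. C1qa relative to C1qb was 0.558, 0.624 and 0.837 in control and 0.662, 0.686 and 0.951 in LPS, and these ranges overlapped.

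Among the 9 genes, the order of levels per kilobase of exon differed between the groups. In control the order was C1qb (421.8 ± 280.3 CPM per kilobase, SD, n = 3), C1qa (311.1 ± 270.2), C1qc (248.9 ± 180.4), Serping1 (50.1 ± 2.39), C1ra (10.6 ± 1.67), C3 (10.4 ± 1.74), C2 (1.74 to 2.33 over the 3 libraries), C4b (1.68 ± 0.333) and Cfb (0.0303 ± 0.0152). In LPS it was C3 (447.5 ± 158.1), C1qb (346.2 ± 367.7), C1qa (304.6 ± 370.8), Serping1 (241.1 ± 30.9), C1qc (169.6 ± 205.0), C1ra (41.3 ± 15.3), Cfb (14.8 ± 1.91), C2 (8.22 ± 1.09) and C4b (3.93 ± 0.999). Neighbours in control whose ranges over the 3 libraries overlapped were the C1q chains, C1ra with C3, and C2 with C4b. In LPS the neighbours among the first 6 places overlapped in this way, because the C1q chains spanned a wide range. With the longest transcript as the length, C1qa and C1qc exchanged places in control, and Serping1 and C1qa in LPS.

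**Figure D4:**
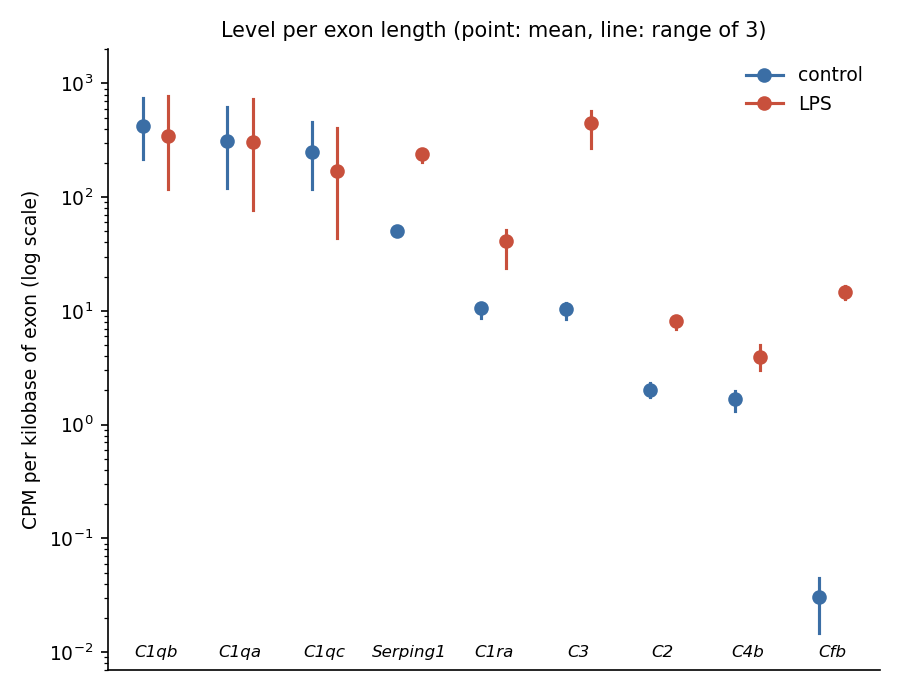
Mean level per kilobase of exon (CPM per kilobase, log axis) of the 9 genes in control and LPS, with points for means and lines for the range of 3 libraries. C3 moves from 10.4 to 447.5 and Cfb from 0.0303 to 14.8, while C1qb is at 421.8 in control and 346.2 in LPS with widely spread libraries.

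Complement genes beyond the 9 gave fewer calls. Of 44 further genes on a list of the pathway, 25 were tested, 2 rose (C1s1 and C1rl), 1 fell (Cd59a) and 22 were not called, and their median log2 fold change was -0.01. These shares are near those over all genes tested, 9.09% higher and 6.71% lower. The replicate block gave 4 higher and 7 lower calls among them, against 15.4% and 14.9% of all genes. Genes named below without a call were chosen for their partner among the 9 or after their values were seen.

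Cd59a, an anchored inhibitor of the membrane attack complex, was at 25.4, 26.8 and 24.5 CPM in control and at 14.5, 15.3 and 13.6 CPM in LPS. It fell, with a log2 fold change of -0.82 (SE 0.09, edgeR adjusted p = 0.00474), and remained called whichever library was left out. Of 8 membrane regulators listed, 6 were tested and Cd59a was the single call. With the replicate block Susd4 was called lower as well (log2 fold change -1.29, edgeR adjusted p = 0.0168, with a highest value of 0.460 over all alternatives). Without replicate 3 of both groups the inhibitor genes Clu and Csmd1 were called higher (log2 fold change 1.12 and 1.09). Their edgeR adjusted p was 0.000317 and 0.00215, with highest values of 0.424 and 0.334 over all alternatives. Cd59a and Susd4 were called lower without replicate 3, where 22.6% of all genes were called higher and 20.4% lower.

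In the lectin pathway, in which sugar-binding proteins replace C1q, 9 genes were listed and 4 tested, with 0 called in edgeR and with limma-voom and 2 lower at an unadjusted p under 0.05 in edgeR. These were the protease gene Masp1 (control 30.6 ± 15.3 CPM, LPS 10.3 ± 4.67 CPM, SD, n = 3) and the collectin gene Colec10 (control 13.4 ± 6.17 CPM, LPS 4.43 ± 1.04 CPM). Both were called lower by DESeq2, by the edgeR exact test and with the replicate block (edgeR adjusted p = 0.00293 and 0.0242), which called 1673, 1214 and 2273 (14.9%) of all genes lower. In the terminal pathway, whose proteins form the membrane attack complex, 1 of 7 genes was tested. That gene, Hc (C5), averaged 1.57 ± 0.217 CPM in control libraries against 1.55 ± 0.212 CPM in LPS libraries (SD, n = 3, edgeR adjusted p = 0.971). Without replicate 3 of both groups 3 were tested, and C6 and C7 were called lower, against 20.4% of all genes. Their log2 fold changes were -3.95 and -1.57 (edgeR adjusted p = 0.0102 and 0.0254). Counts were low, at 11, 12 and 2 in control and 0, 1 and 1 in LPS for C6. For C7 they were 22, 37 and 6 in control and 8, 8 and 7 in LPS.

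Of 9 receptor genes, 7 were tested and 0 were called in edgeR, with DESeq2, with the edgeR exact test and with limma-voom, and 0 had an unadjusted p under 0.05 in edgeR. The replicate block gave 1 higher and 3 lower calls among them, against 15.4% higher and 14.9% lower over all genes. Without replicate 3 of both groups 5 of the 7 were called lower (C3ar1, C5ar1, C5ar2, Itgax and Cd93), against 20.4% of all genes. All 7 were highest in replicate 3 of both groups. C3ar1, the receptor for the C3 fragment C3a, was at 173.6, 241.7 and 562.5 CPM in control replicates 1, 2 and 3 and at 105.1, 129.2 and 694.5 CPM in LPS replicates 1, 2 and 3 (log2 fold change -0.07, SE 0.85, edgeR adjusted p = 0.963). Without replicate 3 of both groups its log2 fold change was -0.80 (edgeR adjusted p = 0.00921, with a highest value of 0.980 over all alternatives). Like the C1q chains, C3ar1 was highest in replicate 3 of both groups, whereas C3 itself was lowest in LPS replicate 3 among the LPS libraries.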

How the data were processed

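RNA of 3 control and 3 LPS libraries was analysed. The authors deposited 1 file of raw gene counts per library. The submitters' processing notes list cutadapt 1.15, Bowtie2 2.3.3.1, STAR 2.5.2b, SAMtools 1.5 and featureCounts 1.5.3 with GRCm38. The library kit kept strand, whereas the strand setting of the counting and its treatment of shared reads were not given in the sources used here. A table of the whole series repeated these counts and was not used.

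From the counts, genes were filtered with filterByExpr (minimum count 10, total 15), scaled by TMM factors (0.9175 to 1.081) and tested with the edgeR 4.0.16 quasi-likelihood F-test (R 4.3.3), two-sided, fitting the group alone, and p-values were adjusted over 15226 genes by the Benjamini-Hochberg method. The SE is the absolute log2 fold change over the square root of F. CPM used the scaled library sizes, and intervals and floors cover counting error only. Coordinates and exon lengths came from GENCODE M21.

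Alternatives were RLE, upper-quartile or library-size scaling, other filters, DESeq2 1.42.0, the edgeR exact test, limma-voom (limma 3.58.1), the replicate block and single libraries left out. Deviations from the group means correlated between same-numbered control and LPS libraries (r = 0.513, 0.334 and 0.613 across genes). The number was used as a block in an alternative only, and the main test did not pair the samples. LPS replicate 2 correlated more with control replicate 1 (0.419) than with its own number, and control replicate 2 nearly as much with LPS replicate 1 (0.323), so the values set replicate 3 apart more than they separate numbers 1 and 2. The labels do not say what a number shares. The genes, the lists and the tests were chosen with earlier results of these data known. By rule the text named the 9 genes, called genes of the wider complement list, their partners (C1rb, C1s1, C4a and C3ar1), the 3 macrophage markers most abundant over all libraries and the genes closest in pattern to C3, Cfb and C1q. Cfp, Cfd, C1s2, Masp1, Colec10, Hc, C6, C7, Susd4, Clu and Csmd1 were named after their values were seen. So were Mrc1 and the remaining macrophage markers, the markers of glia, mesenchymal cells and smooth muscle, and the receptors other than C3ar1. Some results are not reported here.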

Additional observations from a re-analysis of the deposited data

How the results depend on the processing

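C2, C3, Cfb and Serping1 kept their direction and call under every alternative that could test them. Cfb could not be tested with at least 10 counts required in every library. C1ra and C4b kept their direction and lost the call only when single libraries were left out. With a replicate block the 9 genes kept their calls, while the other complement genes called went from 2 to 4 higher and from 1 to 7 lower. The counts over all genes were 1384 higher and 1022 lower, against 2343 and 2273 with the block, 2079 and 1673 with DESeq2, 3498 and 3159 without replicate 3 of both groups (added after the data were seen), and 379 to 1964 and 112 to 1426 with single libraries left out. Genes called lower were 1589 under upper-quartile scaling and 2054 under scaling by total alone, which called 1050 and 986 higher and moved the median over all genes tested from -0.02 to -0.12 and -0.18 on the log2 scale. Of the 9 genes, 4 to 6 were called higher with single libraries left out, and 3 lower without replicate 3 of both groups. For the other complement genes, 1 was called higher and 2 lower under upper-quartile scaling, 1 and 2 under scaling by total alone, and 1 higher without a filter. DESeq2 and the edgeR exact test each called 3 lower, single libraries left out gave 0 to 3 higher and 1 to 5 lower, and leaving out replicate 3 of both groups gave 5 higher and 11 lower. The sign reversed for C1qa without control replicate 3 (0.97), LPS replicate 1 (0.43) or LPS replicate 2 (0.38), for C1qb under the same settings (0.41, 0.13 and 0.07) and for C1qc without control replicate 3 (0.23), while the lowest values, without LPS replicate 3, were -1.78, -1.66 and -2.28. C1q as a percentage of the marker sum ranged from 15.6 to 18.0 in control and 7.16 to 9.85 in LPS with single libraries left out, and was 52.4 and 21.7 without Lyz2. With the longest transcript as length, 2 genes changed place in each group. The cause of these shifts was not tested. At 1 to 3 counts per control library, the ratio of LPS to control for Cfb was imprecise, with an exact 95% interval of 223.7 to 1330 from counting error alone.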

Other observations

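Genes whose pattern over the 6 libraries was closest to that of C3, of Cfb or of the C1q chains were listed among 11832 genes that reached a mean of 5 CPM in either group, by the root mean square difference of centred log2 CPM. For C3 these were H2-Q4 (0.201), Ccl2 (0.227), Ccl7 (0.238), Mmp13 (0.329) and Il6 (0.329). Ccl2, the monocyte chemoattractant, was at 50.3, 48.8 and 40.8 CPM in control replicates 1, 2 and 3 and at 2733, 2856 and 1135 CPM in LPS replicates 1, 2 and 3, so that LPS replicate 3 was the lowest of its group, as it was for C3. For Cfb they were Tgtp2 (0.231), Gbp5 (0.235), Il1a (0.494), Csf3 (0.494) and H2-Q5 (0.502). The guanylate-binding protein gene Gbp5 was at 0.466, 0.354 and 0.248 CPM in control and at 72.1, 92.4 and 99.5 CPM in LPS.

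For the mean of the C1q chains the closest genes were Inpp5d (0.0741), Lpxn (0.107), Cyth4 (0.119), Tnfaip8l2 (0.120) and Nfam1 (0.141). Inpp5d, which encodes the phosphatase SHIP1 of blood cells, was at 40.1, 65.1 and 169.6 CPM in control replicates 1, 2 and 3 and at 22.6, 25.9 and 164.5 CPM in LPS replicates 1, 2 and 3. It was highest in replicate 3 of both groups, and the groups overlapped. These likenesses, the place of replicate 3 included, follow from choosing genes by pattern. They rest on 6 libraries and describe the pattern alone.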
